A study of Homo sapiens with 40 samples.

Results

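The 12 arrays described here followed SKMM1 cells in which an shRNA against CASP10 was switched on, and they were 12 of the 40 arrays of the series. They were all the arrays of SKMM1 with the hairpin shCasp10-2 that set induced against uninduced cells, chosen by their titles. SKMM1 is a human multiple myeloma line, that is, a line of malignant plasma cells. The tested cells carried a retroviral vector expressing shCasp10-2 and were treated with 20 ng/ml doxycycline, which switches the hairpin on, for 24, 48, 72, 96 or 120 hours (days 1 to 5). Their reference was the same transduced line without doxycycline, harvested on the same day. Both groups therefore carried the vector, and only the induced cells received the drug, so an effect of the hairpin and one of doxycycline cannot be told apart in these arrays. A further 4 arrays of the series set the induced SKMM1 cells against SKMM1 cells induced to express a control shRNA, and 20 arrays held the same comparison of induced with uninduced cells in the myeloma lines H929 (12 arrays) and KMS12 (8 arrays). Of those 20, 8 carried another hairpin against the same gene, shCasp10-3, which made up 1 of 3 courses in H929 and 1 of 2 in KMS12. The remaining 4 arrays set induced against uninduced cells of the lymphoma lines OCI-Ly7 and OCI-Ly19. They are used below only where a result is set against them.

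Caspase-10 is a cysteine protease closely related to caspase-8 that death receptors recruit through the adaptor FADD. In myeloma cells it is known to pair with the long form of cFLIP (encoded by CFLAR) and, below the level of activity that kills, to cleave BCLAF1, a protein that otherwise displaces beclin-1 from BCL2 and drives autophagy. IRF4, the transcription factor on which myeloma cells depend, is known to control CASP10 and CFLAR.

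Each array was a 2-colour lymphochip array, a spotted array built for genes of lymphoid cells. Per the labels, 50 µg of total RNA of induced cells was labelled with Cy5 and that of uninduced cells with Cy3. The value of each of the 15246 probes is a log ratio, read here as log2 of induced over uninduced, so that -1 is read as a halving. The base and the direction of the ratio are not stated in the sources used here, and the direction is likely from the dyes. Signal over background is not known, because the files hold no spot intensities. Probes of a gene were averaged, which left 9681 features, 4604 of them named genes. In a ratio from bulk RNA, fewer cells of a type and less RNA per cell cannot be told apart, and a plasma cell marker shows only a difference, not a level.

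The days fell into 3 repeats, and each array is named below by its repeat and day. Repeat 1 held days 1 to 4, and repeats 2 and 3 held days 2 to 5. The day 1 array and the 2 day 5 arrays were placed by the consecutive database numbers in their titles, since the labels number the day 5 arrays as repeats 1 and 2. Over features, the array placed on day 5 of repeat 2 correlated at r = 0.622 with the mean of that repeat over days 2 to 4, against -0.422 for repeat 1 and -0.546 for repeat 3. The array placed on day 5 of repeat 3 correlated at 0.723 with repeat 3, against 0.491 for repeat 1 and -0.481 for repeat 2. The day 1 array correlated at -0.175 with repeat 1, where the numbers place it, at 0.356 with repeat 2 and at -0.239 with repeat 3, so its values do not bear out its placement. The labels do not say whether the days of a repeat came from a single culture, so each p-value below reflects only the spread among these samples, which may be technical.

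The repeats differed more than the days. The median log ratio of the probes lay between -0.06 and 0.07 on the 4 arrays of repeat 1, between -0.79 and -0.30 in repeat 2, and between 0.08 and 0.36 in repeat 3. An array is called wide below where more than 10% of its probes lay beyond 3 in either direction, which held for 5 arrays. The share beyond 3 was 30.6%, 23.5%, 10.3% and 13.6% on days 2 to 5 of repeat 2, nearly all of it below -3, and 14.7% on day 4 of repeat 3, nearly all of it above 3. The other arrays of repeat 3 had 5.52% to 8.58%, also above 3, and those of repeat 1 had 0.0459% to 1.48%. Repeat 2 was thus tilted to values below 0 and repeat 3 to values above 0. In repeat 1 the tilt was smaller and differed by day, with 42.0% of probes above 0 on day 1 and 50.8% to 55.9% on days 2 to 4.

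**Figure D1:**
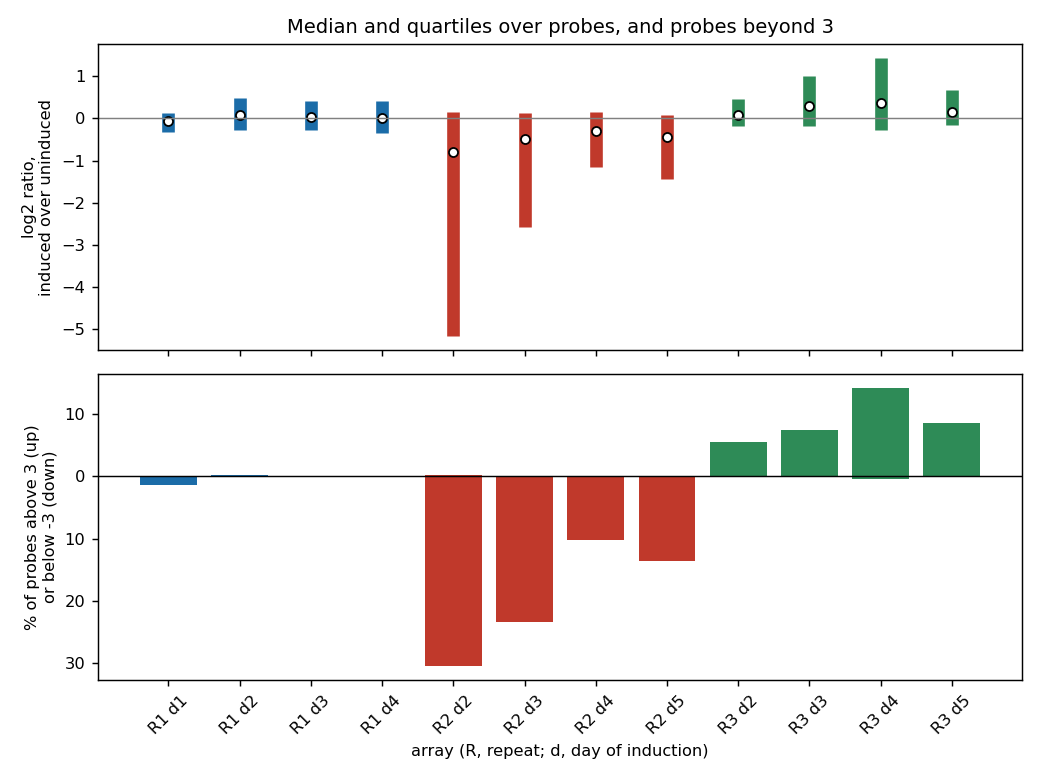
Upper panel: the median (circle) and the quartiles (bar) of the log2 ratios of 15246 probes on each of the 12 arrays, induced over uninduced, with repeat 1 in blue, repeat 2 in red and repeat 3 in green. Lower panel: the percentage of probes above 3 (upward bars) and below -3 (downward bars). The tail of repeat 2 points down, with 30.6% of probes beyond 3 on day 2, and that of repeat 3 points up.

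Over the 9 arrays of days 2 to 4, a median of 54.2% of the sum of squares of a feature lay between repeats, 13.4% between days and 29% in the remainder. The median SD over the 3 repeat means was 0.893. Pearson's r over all features had a median of 0.173 between arrays of repeat 1, where it ran from -0.179 to 0.641, of 0.448 between arrays of repeat 2 and of 0.526 between those of repeat 3. Between repeats 2 and 3 the median was -0.393, and 12 of the 16 pairs were under -0.3; between repeats 1 and 2 it was -0.307, with 8 of 16 pairs under -0.3. Between repeats 1 and 3 the median was 0.344. Arrays of one dye orientation that run against each other in this way leave the direction of repeats 2 and 3 unsettled, so counts below are also given with the sign of repeat 2 or of repeat 3 turned. These correlations are over features of the same arrays and serve as a description.

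The opposed pattern was weaker among features that were never extreme elsewhere. Of the 9681 features, 3591 lay within 3 of 0 on all 24 arrays that compared induced with uninduced cells of the other lines. Among them the share of the sum of squares between repeats was 41.2%, against 61.7% among the other 6090 features, and the median SD over repeats was 0.391, against 1.7. The median r between repeats 2 and 3 was -0.242 among these features and -0.321 among the others. The day 1 array of repeat 1 correlated at -0.179 to -0.125 with days 2 to 4 of its own repeat over all features, and at 0.178 to 0.270 over these 3591.

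Past a 2-fold difference (beyond 1 in log2) on the mean of days 2 to 4, the repeats again differed. Repeat 1 had 76 features below -1 (0.785%) and 311 above 1 (3.21%), repeat 2 had 4870 below (50.3%) and 20 above (0.207%), and repeat 3 had 81 below (0.837%) and 2479 above (25.6%). No feature was past this limit on one side in all 3 repeats. Of the features above 1, repeats 1 and 3 shared 207, which is 66.6% of those of repeat 1 and 8.35% of those of repeat 3. As many as 2074 features were below -1 in repeat 2 and above 1 in repeat 3, 42.6% and 83.7% of the 2 lists. Turning the sign of a repeat exchanges its counts below and above.

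**Figure D2:**
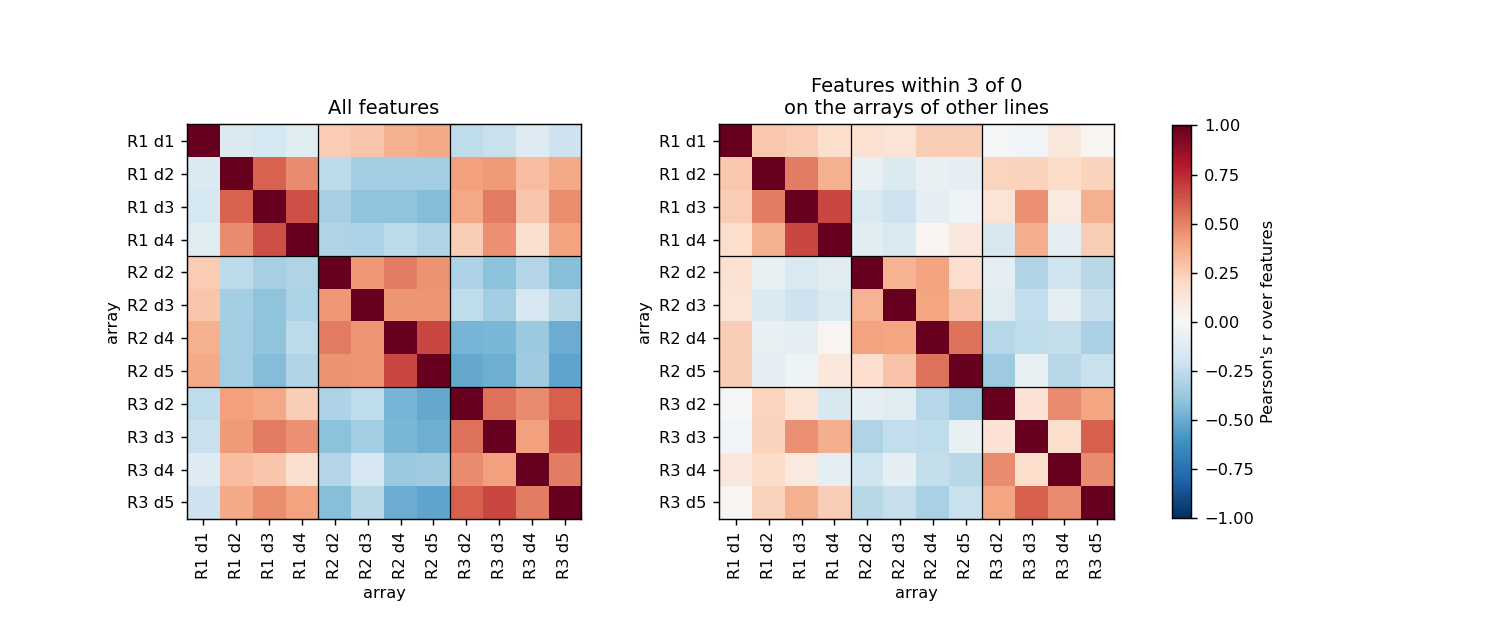
Pearson's r over features for each pair of the 12 arrays (R, repeat; d, day), over all 9681 features (left) and over the 3591 features within 3 of 0 on the arrays of other lines (right); red is above 0 and blue below. Repeat 2 is blue against repeat 3 and against days 2 to 4 of repeat 1, with a median r of -0.393 for repeats 2 and 3 in the left panel; day 1 of repeat 1 is the exception.

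CASP10, the gene the hairpin targets, lies on chromosome 2 (GRCh38.p14, 201183141 to 201229406) and was read by 6 probes. On the mean of these probes its log2 ratio was -0.89, -0.51, -0.25 and -0.32 on days 1 to 4 of repeat 1. In repeat 2, days 2 to 5 gave -2.82, -1.19, -0.84 and -0.90. In repeat 3 the same days gave -0.02, -0.30, 0.35 and -0.17. It was below 0 on 11 of the 12 arrays, and day 4 of repeat 3 was the exception. The repeat means over days 2 to 4 averaged -0.66 ± 0.85 (SD, n = 3), and 2 of the 3 were below 0. An exact two-sided sign-flip test gave p = 0.5, where 3 repeats cannot go below 0.25.

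The probes did not agree. Probes 1 to 4 were below 0 on all 12 arrays, with means over the arrays of -0.67, -0.94, -0.97 and -1.28. Probe 5 was below 0 on 11 of 12, the exception being 0.58 on day 5 of repeat 2, and averaged -0.66. Probe 6 was below 0 on 5 arrays only and averaged 0.60. It stood at 0.64, 0.84 and 0.76 on days 2 to 4 of repeat 1 and at 1.15, 2.37, 5.82 and 0.88 on days 2 to 5 of repeat 3. With the median over the 6 probes in place of the mean, CASP10 was below 0 in all 3 repeats, at -0.77 ± 0.48 (exact sign-flip p = 0.25). With each array centred on its median it was also below 0 in all 3, at -0.55 ± 0.34 (exact p = 0.25). The mean depended on repeat 2: it was -0.17 without that repeat, -0.26 without the wide arrays, and 0.42 with the sign of repeat 2 turned. In repeat 3, where the array medians were above 0, 5 of the 6 probes were below 0 on each array. In the other myeloma lines the course means of CASP10 over days 2 to 4 were -1.42, -0.08 and -0.63 in H929 and -0.60 and -0.32 in KMS12, where the last value of each line is from shCasp10-3. Against the control shRNA, CASP10 stood at -0.43, -0.74, -0.68 and -0.57 on days 1 to 4.

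**Figure D3:**
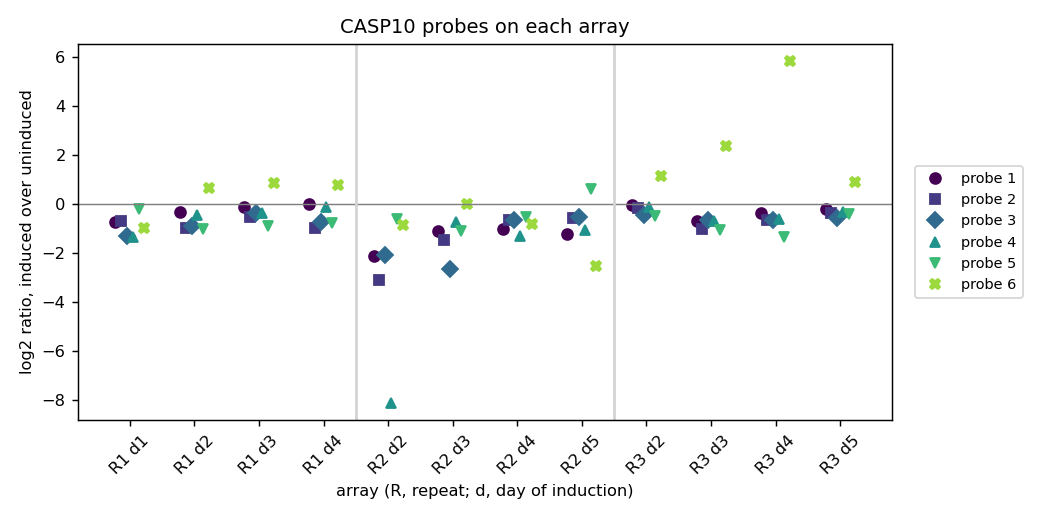
The log2 ratio, induced over uninduced, of each of the 6 CASP10 probes on each array (R, repeat; d, day), with grey lines between repeats. Probes 1 to 4 lie below 0 on all 12 arrays, while probe 6 reaches 5.82 on day 4 of repeat 3.

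The question of the experiment was which genes respond to the loss of caspase-10. Few features kept one sign. Of the 9681, 77 were below 0 on all 12 arrays (0.795%, 43 of them named genes) and 22 were above 0 on all 12 (0.227%, 8 named). After centring each array on its median these counts were 39 and 33. They were 63 and 430 with the sign of repeat 2 turned, and 124 and 9 with that of repeat 3 turned. Days of a repeat are not independent, and no test was made of these counts.

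Among the genes below 0 on all 12 arrays, LGALS1, CD6 and CYTH4 were the ones with 2 or more probes that were all below 0 on every array. LGALS1 encodes galectin-1, a secreted lectin that binds galactosides on glycoproteins (chromosome 22, GRCh38.p14, 37675636 to 37679802). It stood at -0.56, -1.26, -1.53 and -1.34 on days 1 to 4 of repeat 1, at -0.42, -1.53, -0.99 and -1.31 on days 2 to 5 of repeat 2, and at -0.37, -0.52, -1.34 and -0.64 on days 2 to 5 of repeat 3. No array lay above -0.37, and both probes were below 0 throughout. CD6, a surface receptor best known on T cells (chromosome 11, 60971680 to 61020377), stood at -0.37, -1.20, -1.47 and -1.49 in repeat 1, at -0.35, -0.34, -0.54 and -0.48 in repeat 2 and at -0.54, -1.03, -0.99 and -0.78 in repeat 3. Its 3 probes agreed on all arrays, and its values were furthest from 0 on days 2 to 4 of repeat 1. CYTH4, an exchange factor for ARF GTPases, lay between -0.99 and -0.20.

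Other named genes below 0 on all 12 arrays, chosen after their values were seen, were the following. MAPK3, which encodes the kinase ERK1, averaged -0.51 ± 0.09 over the repeats (SD, n = 3) and lay between -1.19 and -0.28. ARAF, a kinase upstream of ERK, averaged -0.41 ± 0.16, and SHC1, an adaptor that links receptors to RAS, averaged -0.40 ± 0.25. JUNB, a subunit of the AP-1 transcription factor, averaged -0.37 ± 0.19. IRF3, a transcription factor of the interferon response read by 6 probes, averaged -0.37 ± 0.06 and lay between -0.52 and -0.10. UROS, an enzyme of haem synthesis, averaged -0.61 ± 0.28, and SDC1, which encodes the plasma cell surface marker CD138, averaged -0.36 ± 0.20. The 8 named genes above 0 on all 12 arrays were CCNG1, CTC1, HMGB1, MATN1, MRPS22, NOA1, TMEM60 and TOMM20. HMGB1, a chromatin protein (chromosome 13, 30456704 to 30617597), stood at 0.21 to 0.50 in repeat 1, at 0.24 to 0.58 in repeat 2 and at 0.17 to 2.55 in repeat 3. These 8 genes were all read by 1 or 2 probes.

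**Figure D4:**
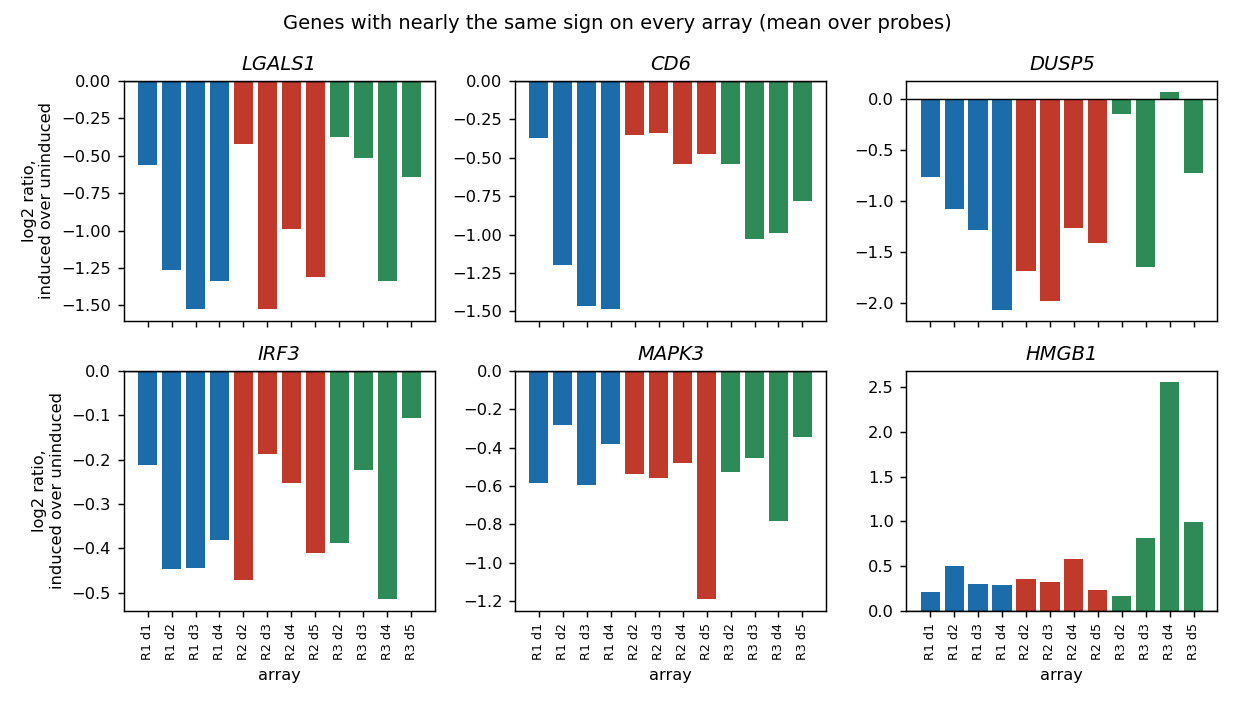
Bars give the log2 ratio, induced over uninduced, of 6 genes on each of the 12 arrays (mean over probes), with repeat 1 in blue, repeat 2 in red and repeat 3 in green; each panel has its own axis. LGALS1, CD6, IRF3 and MAPK3 lie below 0 and HMGB1 above 0 on all arrays, and DUSP5 lies below 0 on all but day 4 of repeat 3.

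With each repeat counted as 1 replicate, limma on the 3 repeat means over days 2 to 4 called 0 of the 9681 features at an adjusted p under 0.05. The percentage called was 0 in each direction, 7 features had an unadjusted p under 0.05, and the smallest adjusted p was 0.999. With the sign of repeat 2 or of repeat 3 turned, 0 were called as well, with 1059 and 21 at an unadjusted p under 0.05. The lowest unadjusted p among genes of one sign in all repeats belonged, on the lower side, to LGALS1, at -1.03 ± 0.30 (SE), then DUSP5 at -1.23 ± 0.37, IL10 at -1.11 ± 0.36, CHI3L2 at -1.16 ± 0.38 and TGIF1 at -0.92 ± 0.34. DUSP5 encodes a phosphatase that is induced by ERK and switches ERK off in the nucleus, IL10 a cytokine that restrains inflammation, and TGIF1 a repressor of TGF-beta signalling. On the higher side they were MATN1, a cartilage matrix protein, at 0.70 ± 0.27, Hoxa5 (spelled as in the annotation) at 0.69 ± 0.27 and ZNF776 at 0.67 ± 0.26, each read by 1 probe. All of these had an adjusted p of 0.999.

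Without the wide arrays 5 arrays of days 2 to 4 were left, 3 of repeat 1 and 2 of repeat 3. A limma fit with the repeat as a random block then called 1 feature (0.0103% higher, 0% lower), and 2689 had an unadjusted p under 0.05. The called feature was a probe with no gene name here, at 1.99, 1.98 and 2.47 on days 2 to 4 of repeat 1 and at 2.15 and 2.32 on days 2 and 3 of repeat 3, for an estimate of 2.19 ± 0.15 (SE, adjusted p = 0.0486). On the arrays left out it stood at -5.80, -5.93 and -5.80 on days 2 to 4 of repeat 2 and at -1.36 on day 4 of repeat 3. With the sign of repeat 3 turned the fit called 0. Among the named genes next to it, at an adjusted p of 0.138, TMEM106C stood at 1.14 ± 0.16 and STEAP4, a metalloreductase, at 1.30 ± 0.18 on the higher side. On the lower side they included PPP1R18, a subunit of protein phosphatase 1 that binds actin, at -1.16 ± 0.16, CD6 at -1.12 ± 0.19, MCM2 at -0.67 ± 0.13, HSPA5 at -0.72 ± 0.14, IL2RG at -1.02 ± 0.21 and ETV4 at -0.74 ± 0.16.

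Another fit kept all 9 arrays of days 2 to 4, with the repeat as a random block. Here limma weighted each array by how closely it followed the common mean of the 9 arrays. The weights themselves took no account of the repeat. The weights were 4.54 to 13.8 for repeat 1, 0.3 to 1.52 for repeat 3 and 0.099 to 0.428 for repeat 2, so this fit describes repeat 1 above all. It called 1036 features, 737 lower (7.61% of those tested) and 299 higher (3.09%). Without repeat 1 it called 0, with 1195 at an unadjusted p under 0.05; without repeat 2 it called 2166, and without repeat 3 it called 711. With the sign of repeat 2 turned it called 424 lower and 337 higher, and with that of repeat 3 turned it called 0. Its calls are given below as those of the weighted fit, and they rest on the arrays of repeat 1. Those arrays are days of 1 repeat, so the p-values of this fit say little about the spread between repeats.

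In the weighted fit the named genes furthest below 0, among those below 0 in all 3 repeats, included LGALS1 at -1.35 ± 0.15 (SE, adjusted p = 0.00497) and CD6 at -1.33 ± 0.13 (adjusted p = 0.00313). DOCK2, which activates RAC in blood cells, was called lower at -1.30 ± 0.16, CKLF, a chemokine-like factor, at -1.28 ± 0.16, and DUSP5 at -1.25 ± 0.22 (adjusted p = 0.0112). CCL5, a chemokine that draws T cells and monocytes, was called lower at -1.16 ± 0.21. IL2RG, the receptor chain shared by several interleukins, stood at -0.45, -1.08, -1.26 and -1.05 on days 1 to 4 of repeat 1, at -0.36, -0.11, -0.51 and 0.20 on days 2 to 5 of repeat 2 and at -0.36, -1.41, -1.06 and -0.50 on days 2 to 5 of repeat 3. Its estimate was -1.14 ± 0.13 (adjusted p = 0.00497). On the higher side stood TLL2, a protease related to BMP1, at 1.07 ± 0.30 and PRKACG, a catalytic subunit of protein kinase A, at 0.82 ± 0.15, each read by 1 probe.

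The gene groups are described by their counts in the weighted fit and by how many members were below or above 0 in all 3 repeat means. Over all features 11.8% were below 0 in all 3 repeats and 4.85% above, and the median estimate of the weighted fit was 0.07. The shares were 9.72% and 41.4% with the sign of repeat 2 turned, and 16.7% and 3.36% with that of repeat 3 turned. In the weighted fit without repeat 1, or with the sign of repeat 3 turned, 0 members of any of the 30 lists were called. Counts with the sign of repeat 2 turned, on centred arrays, or without repeat 2 are given for most lists. Small counts are to be read against those over all 9681 features. The weighted fit called 737 of these lower (7.61%) and 299 higher (3.09%). On centred arrays it called 1251 lower and 412 higher, and without repeat 2 it called 954 and 1212. Leaving out repeat 3 gave 564 and 147, and turning the sign of repeat 2 gave 424 and 337.

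None of the 12 measured genes of the death receptor and caspase-10 group was called in the weighted fit, and 1 was below and 2 above 0 in all 3 repeats. On centred arrays the same fit called 3 of the 12 lower, and without repeat 2 it called 1 higher. FADD, the adaptor that brings caspases-8 and -10 to the receptor, was below 0 on 11 of 12 arrays, with an estimate of -0.30 ± 0.09 (adjusted p = 0.0607). TNFRSF10D, a decoy receptor for TRAIL, stood at 0.35 ± 0.12 (adjusted p = 0.0789) and CASP8 at -0.28 ± 0.10 (adjusted p = 0.0974). Of the 7 measured genes of the route from caspase-10 to autophagy, 0 were called and 0 kept one sign in the 3 repeats. BCLAF1, the substrate of caspase-10, averaged 0.31, -1.49 and 1.17 in repeats 1, 2 and 3. CFLAR averaged 0.0018, -3.70 and -0.13, and BCL2 0.30, -2.66 and 1.18. IRF4 averaged 0.10, 0.49 and -0.22. The repeats thus disagreed in sign for each of these genes. On centred arrays 1 of the 7 was called lower. Of 9 autophagy genes 0 were called, against 2 lower on centred arrays, 1 higher without repeat 2 and 1 lower without repeat 3. Of 14 genes of the BCL2 family 0 were called, against 1 higher on centred arrays or with the sign of repeat 2 turned and 2 higher without repeat 2. MCL1, the survival protein myeloma cells rely on, averaged -0.28 ± 0.15 over the repeats (SD, n = 3) and was below 0 in all 3. Of 14 executioner caspases and apoptosis inhibitors 1 was called (2 lower on centred arrays, 1 lower and 1 higher with the sign of repeat 2 turned), PARP1, a DNA damage sensor that caspases cleave, at -0.38 ± 0.09. It was below 0 in repeats 1 and 3 and stood at 0.47 in repeat 2.

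The list median of the ERK-related genes lay below the median of all features in repeats 1 and 3. Their list median minus the median of all features lay between -0.30 and -0.12 in repeat 1 and between -0.44 and -0.12 in repeat 3. In repeat 2 it lay between -0.06 and 0.24, so there the list was not clearly lower than other features. Of 21 measured ERK phosphatases and immediate-early genes 4 were called lower and 0 higher in the weighted fit, and 9 were below and 0 above 0 in all 3 repeats, with a median estimate of -0.16. That fit called 7.61% of all features lower and 3.09% higher, and 11.8% and 4.85% of them were below or above 0 in all 3 repeats. DUSP5 (chromosome 10, 110497907 to 110511533) stood at -0.77, -1.08, -1.29 and -2.06 on days 1 to 4 of repeat 1, at -1.68, -1.97, -1.27 and -1.41 on days 2 to 5 of repeat 2 and at -0.15, -1.64, 0.07 and -0.73 on days 2 to 5 of repeat 3. It was below 0 on 11 of 12 arrays. By probe, 2 of 3 were below 0 on all 12 and 1 on 11, but they differed in size in repeat 2. On days 2 to 5 there 1 probe read -4.74, -5.53, -2.91 and -3.07. The other probes read -0.07, -0.007, -0.22 and -0.30, and -0.245, -0.38, -0.67 and -0.86. With the median over probes the fit on repeat means gave -0.83 in place of -1.23. DUSP6, the ERK phosphatase of the cytoplasm, stood at -0.38, -1.27, -0.82 and -1.05 in repeat 1, at -0.97, -0.16, -0.40 and 0.07 in repeat 2 and at -0.22, 0.09, -0.60 and -0.37 in repeat 3 (estimate -0.81 ± 0.14, adjusted p = 0.0115). ETV4, an ETS factor whose transcription follows ERK activity, was below 0 on 11 of 12 arrays (-0.72 ± 0.12, adjusted p = 0.0109), and JUNB was called at -0.33 ± 0.09 (adjusted p = 0.0472). The others below 0 in all 3 repeats were DUSP2, ETV5, FOS, ID3 and IER2. On centred arrays the weighted fit called 7 of the 21 lower, and with the sign of repeat 2 turned 3 lower and 1 higher. Without repeat 3 it called 3 lower, without repeat 2 it called 5 lower and 1 higher, and without repeat 1, or with the sign of repeat 3 turned, it called 0.

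Of the 17 measured hypoxia-induced genes 14, 13 and 13 were below 0 on days 2 to 4 of repeat 1, and of the 20 genes of glycolysis and glucose uptake 16, 17 and 14. Of all probes, 55.9%, 52.8% and 50.8% lay above 0 on these 3 arrays. Of the 17 hypoxia genes 7 were called lower and 0 higher in the weighted fit, with a list median of -0.55, and the same 7 were below 0 in all 3 repeats: ADM, ENO2, LDHA, NDRG1, PGK1, SIAH2 and SLC2A1. Not every probe was below 0 in repeat 2. On its days 2 to 4, 1 probe of PGK1 stood at 0.79, 0.42 and 0.18, and 1 of SLC2A1 at 0.28, 0.12 and 0.25. Of the 20 glycolysis genes 7 were called lower and 0 higher, with a list median of -0.35: ENO2, HK1, LDHA, PGK1, SLC2A1, SLC2A3 and TPI1. Among all features 7.61% were called lower and 3.09% higher. The lists share 5 measured genes (ENO2, LDHA, PDK1, PGK1 and SLC2A1), so they are not separate observations.

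The hypoxia list differed from the other features on days 2 to 4 of repeat 1. Its median minus the median of all features was 0.06 on day 1 of repeat 1, then -0.56, -0.69 and -0.87 on days 2 to 4. In repeat 2 it lay between -0.07 and 0.23, and in repeat 3 between -0.38 and 0.05. NDRG1, a stress gene, stood at -0.29, -1.44, -1.23 and -1.31 on days 1 to 4 of repeat 1, at -2.79, -0.43, -0.91 and -1.23 in repeat 2 and at 0.09, -0.48, -0.29 and 0.01 in repeat 3. Its -2.79 on day 2 of repeat 2 rested on 1 of 3 probes, which read -8.34 where the others read -0.30 and 0.27. SLC2A1, which encodes the glucose transporter GLUT1, stood at -0.42, -1.42, -1.08 and -0.51 in repeat 1, at 0.01, -0.11, -0.04 and 0.10 in repeat 2 and at -0.46, -0.12, -1.57 and 0.08 in repeat 3. ENO2, an enolase, stood at -0.18, -0.84, -1.06 and -1.26 in repeat 1, at -1.01, -0.63, -0.66 and -0.73 in repeat 2 and at 0.01, -0.31, -0.61 and -0.10 in repeat 3. ENO2 was below 0 on 11 of 12 arrays and SLC2A1 on 9.

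Of the enzymes called lower, 3 more are given in full for repeat 1. PGK1, phosphoglycerate kinase, stood at 0.05, -0.40, -0.79 and -1.14 on days 1 to 4 of repeat 1, and between -0.30 and 0.99 in repeat 2. LDHA, lactate dehydrogenase, stood at -0.09, -0.51, -0.59 and -1.12 in repeat 1 and was below 0 on 11 of 12 arrays. TPI1, triosephosphate isomerase, stood at 0.20, -0.37, -0.49 and -0.66 in repeat 1 but between 0.12 and 1.01 in repeat 2. The glycolysis list as a whole lay 0.35 to 0.92 above the array median in repeat 2 and 0.22 to 0.95 below it in repeat 3. The 3591 features within 3 of 0 on other lines held 16 of its 20 genes. Their medians on days 2 to 4 of repeat 1 were -0.11, -0.195 and -0.2, against -0.41, -0.44 and -0.32 for the list. In repeat 2 they were -0.17, 0.03, 0.095 and -0.04, against -0.11, 0.01, -0.02 and 0.11. In repeat 3 they were -0.06, -0.06, 0.23 and -0.08, against -0.11, -0.08, -0.52 and -0.09. Of the hypoxia list the weighted fit called 7 lower (1 higher) without repeat 2 and 7 lower without repeat 3, and of the glycolysis list 8 and 3 lower; with the sign of repeat 2 turned it called 4 and 3 lower, and on centred arrays 11 and 9; without repeat 1, or with the sign of repeat 3 turned, it called 0 of either. HIF1A, which encodes the oxygen-regulated subunit of the factor itself, averaged 0.05, -2.18 and 1.52 in the repeats and was not called.

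**Figure D5:**
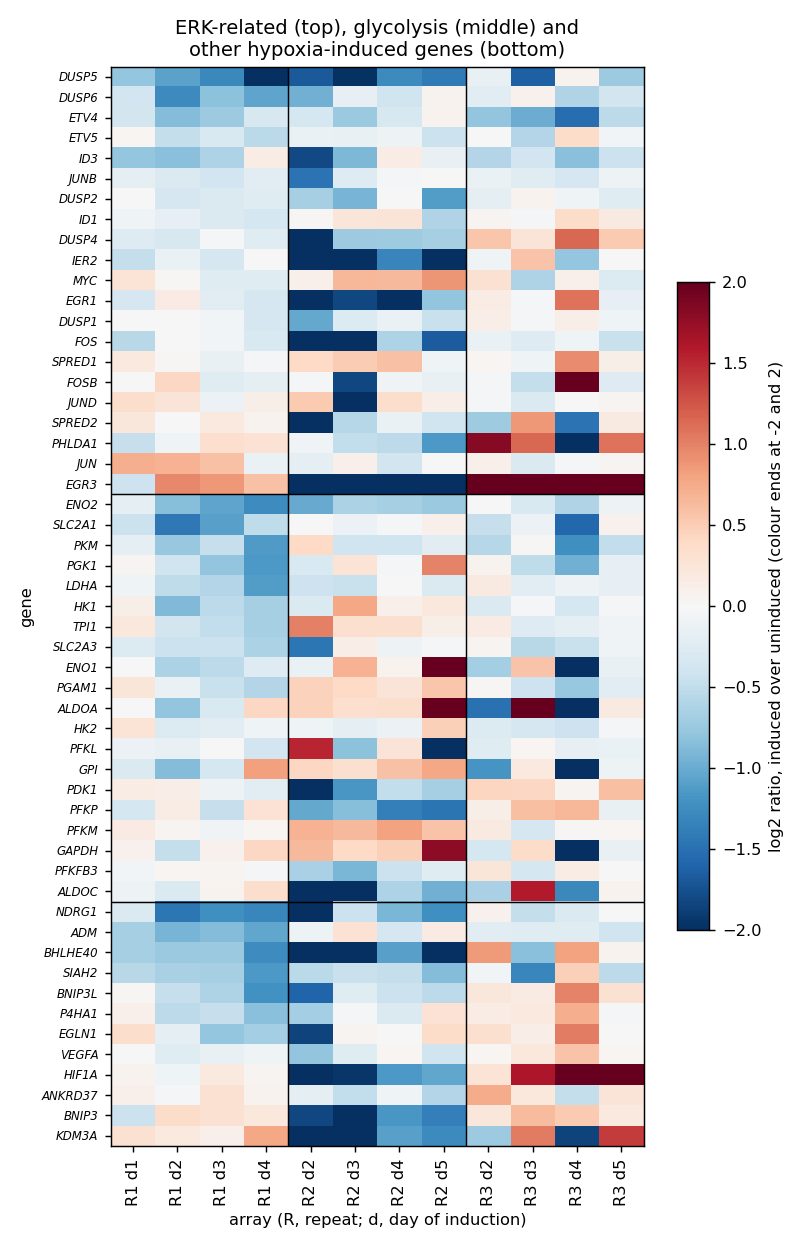
The log2 ratio, induced over uninduced, of 53 genes on the 12 arrays (R, repeat; d, day; colour ends at -2 and 2): 21 ERK-related genes (top), 20 genes of glycolysis and glucose uptake (middle) and 12 further hypoxia-induced genes (bottom), each block ordered by the mean of repeat 1. The top rows of each block are blue in repeat 1, where NDRG1 stood at -1.44 on day 2, while repeats 2 and 3 are mixed.

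The promoters of hypoxia-induced genes are known to carry the core motif ACGTG or GCGTG, which hypoxia-inducible factors bind. Promoters of 300 bases, 250 before to 50 after the gene start, were taken from RefSeq (GRCh38.p14). They were available for 6 of the 7 called genes and 14 of the 17 measured ones. ACGTG, on either strand, was present in 4 of the 6, in 9 of the 14 (64.3%) and in 21.6% of all 27305 promoters; GCGTG was present in 4 of the 6, in 7 of the 14 and in 36.3% of all. A match is a description of the letters. ACGTG also lies within CACGTG, the motif that MYC binds, which occurs in SIAH2 and LDHA. In the sequences below, capitals mark ACGTG and GCGTG on either strand (CACGT and CACGC on the printed one). The 4 called genes with ACGTG are printed. They were picked as called lower in the weighted fit, so their shared direction there follows from the choice. They lie at chr12:6914330-6914629 (ENO2, plus strand), chr3:150763120-150763419 (SIAH2, minus strand), chrX:78103998-78104297 (PGK1, plus strand) and chr11:18394313-18394612 (LDHA, plus strand).
ENO2: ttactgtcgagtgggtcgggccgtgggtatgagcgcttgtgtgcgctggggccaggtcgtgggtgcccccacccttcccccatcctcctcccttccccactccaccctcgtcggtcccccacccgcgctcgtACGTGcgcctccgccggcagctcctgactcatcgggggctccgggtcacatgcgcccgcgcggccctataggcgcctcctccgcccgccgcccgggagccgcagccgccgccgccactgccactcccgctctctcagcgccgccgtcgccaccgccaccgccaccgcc
SIAH2: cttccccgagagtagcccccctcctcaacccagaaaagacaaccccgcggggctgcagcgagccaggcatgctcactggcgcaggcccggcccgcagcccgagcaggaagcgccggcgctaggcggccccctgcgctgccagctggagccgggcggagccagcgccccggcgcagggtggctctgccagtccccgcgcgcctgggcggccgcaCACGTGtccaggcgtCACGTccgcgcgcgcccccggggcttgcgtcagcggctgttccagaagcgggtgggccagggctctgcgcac
PGK1: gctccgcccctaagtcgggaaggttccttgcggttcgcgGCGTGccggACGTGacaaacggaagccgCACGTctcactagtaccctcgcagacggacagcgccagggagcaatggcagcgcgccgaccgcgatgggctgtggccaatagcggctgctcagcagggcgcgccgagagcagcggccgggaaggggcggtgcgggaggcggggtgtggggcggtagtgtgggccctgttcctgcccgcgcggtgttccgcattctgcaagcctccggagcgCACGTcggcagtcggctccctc
LDHA: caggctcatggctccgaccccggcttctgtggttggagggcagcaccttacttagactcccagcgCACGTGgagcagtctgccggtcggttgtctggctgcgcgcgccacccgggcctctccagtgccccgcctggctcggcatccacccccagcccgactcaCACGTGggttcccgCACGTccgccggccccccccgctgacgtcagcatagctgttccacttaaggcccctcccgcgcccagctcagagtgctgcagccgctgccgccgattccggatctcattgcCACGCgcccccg

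ENO2 held 1 match to ACGTG, and PGK1 held 3 together with 1 to GCGTG. SIAH2 and LDHA held 3 and 5 matches when both strands are counted, where a CACGTG counts on each strand.

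Protein folding and stress genes were among the calls, where 7.61% of all features were called lower. Of 19 genes of the unfolded protein response and ER chaperones 3 were called lower in the weighted fit and 0 higher: HSPA5, the chaperone BiP, at -0.69 ± 0.11 (adjusted p = 0.00962), MANF at -0.53 ± 0.10 and CALR, calreticulin, at -0.54 ± 0.14. Turning the sign of repeat 2 left 2 called lower. HSPA5 stood at -0.15, -0.87, -0.71 and -0.74 on days 1 to 4 of repeat 1, at -0.02, 0.49, 0.42 and 0.86 on days 2 to 5 of repeat 2 and at -0.42, -0.86, -0.52 and -0.65 in repeat 3. Repeats 1 and 3 lay below 0 throughout, and repeat 2 lay above 0 from day 3. Of 22 genes of amino acid supply and the integrated stress response 2 were called lower, CBS, which makes cystathionine, at -0.40 ± 0.09 and SLC3A2, the heavy chain of amino acid transporters, at -0.41 ± 0.10; on centred arrays 5 were called, and without repeat 3 0 were. Of 13 lysosomal genes 4 were called lower and 1 higher, as with the sign of repeat 2 turned. LGMN, the lysosomal protease legumain, was called at -1.13 ± 0.17, LAMP1 at -0.58 ± 0.12, CTSC at -0.54 ± 0.11 and the membrane protein CD63 at -0.50 ± 0.09, while HEXA, a hexosaminidase, was called higher at 1.04 ± 0.22. In repeat 2 LGMN averaged 0.10, LAMP1 0.33 and HEXA -1.02, against the sign of their estimates.

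Plasma cell identity genes held calls in 1 direction, lower, the direction in which 7.61% of all features were called. Of 21 measured members of the IRF4 and plasma cell group 2 were called lower and 0 higher, KLF10 at -0.73 ± 0.13 and SUB1 at -0.66 ± 0.16. In all 3 repeats 4 of the 21 were below 0 (KLF10, MZB1, SCD and SDC1) and 3 above (JCHAIN, PRDM1 and SQLE). PRDM1, which encodes the plasma cell regulator BLIMP1, averaged 0.24 ± 0.10 over the repeats (SD, n = 3). JCHAIN, the joining chain of immunoglobulins, averaged 0.32 ± 0.30, and XBP1 0.08 ± 0.45. None of the 26 mature B cell markers was called. Without repeat 2, where the weighted fit called 1212 of all 9681 features higher, it called 6 of these markers higher. Their list median minus the median of all features was -2.22 to -1.02 in repeat 2 and 0.33 to 0.60 in repeat 3, which are the directions of the tails of those repeats.

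Proliferation genes were among the calls, where 7.61% of all features were called lower and 3.09% higher. Of 43 measured genes of the MCM helicase, DNA synthesis and mitosis 7 were called lower and 0 higher in the weighted fit: CCNB1, CDK1, CKS1B, MCM2, MCM7, PCNA and RRM2, with estimates from -0.75 for MCM2 to -0.46 for RRM2. On centred arrays 15 of the 43 were called lower, and with the sign of repeat 2 turned 6. In all 3 repeats 2 of the 43 were below 0 and 1 above, against 11.8% and 4.85% of all features. The list median was -0.16, -0.06 and -0.05 in repeats 1, 2 and 3. MCM2, a subunit of the replicative helicase, stood at -0.28, -0.80, -0.83 and -0.77 on days 1 to 4 of repeat 1, at 0.39, 0.35, 0.21 and 0.72 on days 2 to 5 of repeat 2 and at -0.44, -0.55, -1.11 and -0.36 in repeat 3. MCM2 was above 0 on every array of repeat 2 and below 0 on every other. Of 16 D cyclins, G1 kinases and inhibitors CDK4 and CCNE1 were called lower and CCND1 higher. Of 18 p53 targets 0 were called. Without repeat 2, 3 were called higher, where 1212 of all 9681 features were. On centred arrays 1 was called in each direction, where 1251 of all features were called lower and 412 higher.

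The next groups are set beside all features, of which 7.61% were called lower and 3.09% higher. Of 26 genes of the cytoskeleton, matrix and adhesion 9 were called lower and 1 higher, and 10 were below and 1 above 0 in all 3 repeats. Turning the sign of repeat 2 gave 6 lower and 1 higher. Besides LGALS1 the lower ones included TIMP1, an inhibitor of matrix proteases, at -1.11 ± 0.16, COTL1, an actin-binding protein, at -0.89 ± 0.16, TMSB4X, which binds free actin, at -0.76 ± 0.11, MYL6, a myosin light chain, at -0.69 ± 0.11, and PFN1, profilin, at -0.65 ± 0.11. The higher one was CCR7, a homing receptor, which averaged 0.76 in repeat 1, -2.76 in repeat 2 and 2.02 in repeat 3. Of 29 genes of the interferon response and MHC class I 7 were called lower, among them HLA-B at -0.75 ± 0.12, PSMB9 at -0.74 ± 0.13 and B2M at -0.56 ± 0.14; PSMB9, a subunit of the immunoproteasome, was below 0 on all 12 arrays. With the sign of repeat 2 turned 4 of the 29 were called lower and 2 higher, and without repeat 2 the counts were 8 and 5. Over all 9681 features these settings called 424 and 337, and 954 and 1212. Of 27 genes of the NF-kB group BCL3, CCL3 and IL2RG were called lower, against 1 with the sign of repeat 2 turned and 3 lower and 3 higher without repeat 2. CCL3, a chemokine that myeloma cells are known to secrete, was below 0 on 11 of 12 arrays, with an estimate of -0.78 ± 0.17.

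The remaining groups are given by their calls, where 7.61% of all features were called lower and 3.09% higher. Of 19 genes of IL-6 and JAK-STAT signalling 1 was called lower, IL10, at -0.80 ± 0.16, and it was below 0 on 11 of 12 arrays. Of 14 MHC class II genes 1 was called lower, RFXANK, a subunit of the factor that drives these genes, at -0.71 ± 0.11. Of 15 MYC targets and ribosome biogenesis genes CDK4, EIF4E and LDHA were called lower, and MYC itself averaged -0.15, 0.47 and -0.08 in the repeats. Of 14 FOXO and quiescence genes BTG1, which restrains proliferation, was called lower at -0.52 ± 0.13 and S1PR1, the receptor of sphingosine-1-phosphate, higher at 1.04 ± 0.29. S1PR1 averaged 1.62 in repeat 1, -1.89 in repeat 2 and 0.26 in repeat 3. Of 19 cytosolic ribosomal proteins RPL13, RPLP1 and RPS16 were called lower, though near-identical copies of such genes may share probes. Of 7 proteasome subunits PSMB4 and PSMB6 were called lower, and of 12 genes of cholesterol and fatty acid synthesis and 11 of the respiratory chain 0 were called. With the sign of repeat 2 turned the IL-6 and FOXO groups had 0 calls, the MYC targets 1, the ribosomal proteins 2 and the proteasome 2, all lower. On centred arrays the ribosomal proteins had 5 calls and cholesterol synthesis 2, all lower, and without repeat 2 the MHC class II group had 1 lower and 3 higher. Over all 9681 features 1251 were called lower on centred arrays, and 954 lower and 1212 higher without repeat 2.

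Markers of other blood cells were among the calls, where 7.61% of all features were called lower and 3.09% higher. Of 24 T and NK cell markers 6 were called lower and 0 higher: CD3D, CD6, GNLY, GZMA, LAT and NKG7. On centred arrays 11 were called lower, and with the sign of repeat 2 turned 4. The median of this list lay below the median of all features on all 12 arrays, by 0.07 to 0.50. CD3D, a chain of the T cell receptor complex, stood at -0.35, -1.12, -1.45 and -1.21 on days 1 to 4 of repeat 1, at 2.79, -0.34, -0.97 and -0.50 on days 2 to 5 of repeat 2 and at -0.09, -0.85, -0.35 and -0.67 in repeat 3. Of 13 myeloid markers CYBB was called higher, and of 8 erythroid and platelet markers GATA1. A log ratio holds no level, so whether these genes were expressed in SKMM1 is not known from these values, and their part in the results above was not tested.

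By day, limma with a mean for each day over the 12 arrays and the repeat as a random block called 0 features on each of days 2, 3, 4 and 5, with 134, 78, 58 and 72 at an unadjusted p under 0.05. LGALS1 was among the 10 named genes of lowest p on the lower side on days 3, 4 and 5, at -1.19 ± 0.34, -1.22 ± 0.34 and -1.10 ± 0.39 (SE), and so was CD6, at -0.95 ± 0.28, -1.01 ± 0.28 and -0.81 ± 0.32. On day 2 they included ZYX, the adhesion protein zyxin, at -1.61 ± 0.47, and ID3, an inhibitor of helix-loop-helix factors, at -1.08 ± 0.39. On day 4 ATG16L2, a relative of the autophagy protein ATG16L1, led the higher side at 0.94 ± 0.34, with 0.59, 0.70 and 1.52 in repeats 1, 2 and 3. The adjusted p of these values was 0.89 on day 2 and 1 on days 3 to 5.

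For the change with day, a slope over days 1 to 5 called 0 (39 at an unadjusted p under 0.05), and the fit with the run as a block also called 0 (715 under 0.05 before adjustment; the adjusted p was 0.571 at its lowest). Slopes were above 0 in all 3 repeats for 2291 features (23.7%) and below 0 in all 3 for 754 (7.79%). With the sign of repeat 2 turned these counts were 813 and 1151, and with that of repeat 3 turned 1388 and 958. FASLG, the ligand of the death receptor FAS, had the slope with the sixth smallest p among rising named genes, at 0.90 per day (adjusted p = 0.571). It stood at -0.0033, -0.09, 0.81 and 1.79 on days 1 to 4 of repeat 1, at -4.85, -2.52, -0.32 and -0.71 on days 2 to 5 of repeat 2 and at -0.70, 0.71, -0.33 and 1.72 in repeat 3. Its 4 probes differed within an array, from -8.32 to -0.36 on day 3 of repeat 2. Among genes with slopes below 0 in all 3 repeats, CKLF had -0.30 per day and DNAJC6 -0.36, both at an adjusted p of 0.571.

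Against the control shRNA the induced cells are compared with other induced cells in place of uninduced ones. Those 4 arrays have 1 course, and the labels do not say whether their induced RNA is that of repeat 1, so the values are set side by side only. LGALS1 stood at -0.90, -1.62, -1.58 and -1.83 on days 1 to 4 against the control shRNA, DUSP5 at -1.12, -0.96, -1.52 and -1.68, DUSP6 at -1.24, -2.11, -1.35 and -1.04, and NDRG1 at -1.07, -1.62, -1.75 and -1.40. MAPK3 stood at -0.46, 0.27, -0.47 and -0.27, and HMGB1 at 0.35, 0.48, 0.35 and 0.19. The median of the hypoxia list was -0.21, -0.62, -0.90 and -0.75 there, and that of the glycolysis list -0.44, -0.60, -0.64 and -0.17.

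Against the other myeloma lines, limma on the mean of each course over days 2 to 4 compared the 3 SKMM1 repeats with 3 courses of H929 and 2 of KMS12, both lines weighted equally. One course of each other line used shCasp10-3 and is given last, so hairpin and line both differ there. It called 0 features (103 at an unadjusted p under 0.05, all with an adjusted p of 1), and leaving out the wide arrays it again called 0, with 2035 under 0.05 before adjustment. LGALS1 averaged -1.38, -0.98 and -0.74 in the SKMM1 repeats, against -0.37, -0.08 and 0.14 in H929 and 0.19 and -0.36 in KMS12, a difference of -0.94 ± 0.27 (SE, adjusted p = 1). NFATC2, a calcium-regulated transcription factor, averaged -0.82, -1.92 and -0.45 in SKMM1, against -0.0018, -0.10 and -0.08 in H929 and 0.09 and 0.08 in KMS12, a difference of -1.07 ± 0.36. The SKMM1 repeats did not overlap the other lines for either gene, but both genes were picked from this fit for their low p. That separation is therefore no further support, and the share of all features showing it was not counted. DUSP5 was below 0 in every course, at -1.48, -1.64 and -0.57 in SKMM1, against -0.94, -0.26 and -0.82 in H929 and -1.07 and -0.46 in KMS12. The -1.64, of repeat 2, rested mostly on 1 of its 3 probes. The list median of the hypoxia genes was -0.74, -0.59 and 0.16 in the SKMM1 repeats, against -0.41, -0.22 and -0.07 in H929 and -0.13 and -0.23 in KMS12.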

How the data were processed

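The files hold 1 value per probe and array for 15246 probes and 40 arrays, with 0 missing values. The authors deposited processed log ratios, read here as log2 of Cy5 over Cy3. The dyes are per the labels, with log base, background correction and normalization not given in the sources used here; array medians differ from 0. Probes were named through the platform annotation, which is old: 10169 had 1 symbol, 4 several and 5073 none; 10128 matched the RefSeq table of GRCh38.p14 by Entrez number which left every symbol as it was. Genes with several probes took their mean. Fits used limma 3.58.1 in R 4.3.3 (lmFit, eBayes, duplicateCorrelation, arrayWeights) over all 9681 features with Benjamini-Hochberg adjustment at 0.05, and were tested on simulated data; precision is limited by 12 arrays in 3 repeats.

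Named genes were, for each fit, those of one sign in every repeat: the 10 highest and 10 lowest past the threshold, or up to 10 with the smallest p where fewer passed, plus CASP10 and called members of 30 gene lists with up to 4 others of a list; genes with one sign on all 12 arrays, and genes of the caspase-10 route, were named after their values were seen. The members and lists were chosen with earlier results of these data known. Same-numbered arrays of days 2 to 4 deviated together from the day means (correlations of 0.336 to 0.631), and the placement of the day 1 and day 5 arrays comes from database numbers in the titles. Centring, scaling, the median over probes, a filter (beyond 0.3 on 3 arrays), turned signs, blocks and leaving out repeats were tried as alternatives.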

Additional observations from a re-analysis of the deposited data

Results flagged for a closer look

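For 10 genes chosen by the rule for named genes the 3 SKMM1 repeats lay on one side of 0 and every course of H929 or of KMS12 on the other. That rule itself picks genes of one sign in the SKMM1 repeats. The share of all features on opposite sides in this way was not counted. Against KMS12 (2 courses), CCDC86 averaged 0.578 in SKMM1 and -0.225 in KMS12, FAM83G 0.320 and -0.790, Hoxa5 0.689 and -0.463, MATN1 0.698 and -0.328, NAALADL1 0.463 and -0.496, and RIBC2 0.675 and -0.579. Against H929 (3 courses), CELA3A averaged 0.559 in SKMM1 and -0.609 in H929, and PRPF38B 0.568 and -0.985. TNXB averaged 0.567 in SKMM1, -0.232 in H929 and -0.381 in KMS12, and ZNF37A averaged 0.742 in SKMM1, -0.206 in H929 and -0.120 in KMS12. One course of each other line used the hairpin shCasp10-3. The difference from each line alone was not tested; in the limma fit of SKMM1 minus the mean of both lines all 10 had an adjusted p of 1. CELA3A was read by 2 probes and the others by 1.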

How the results depend on the processing

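Of the counts called and of the CASP10 value, 90 alternative values were the same, 30 moved and 1 reversed; of the named genes 526 were the same, 112 passed the threshold under array weights and 14 reversed. The response on repeat means had 0 calls; array weights gave 1036, the same on centred arrays 1663, with the sign of repeat 2 turned 761 and with that of repeat 3 turned 0. Leaving out replicates under array weights gave 0 to 2166 (0, 2166 and 711 without replicates 1, 2 and 3). Without the wide arrays the 1 call became 0 on centred arrays, on centred and scaled arrays, among features beyond 0.3 on 3 arrays, with the sign of repeat 3 turned, among the 3591 features within 3 of 0 on other lines, and on repeat means. It became 2160 with single arrays taken as independent and 2524 with arrays over 5% beyond 3 also left out, which leaves repeat 1 alone; leaving out replicate 1 or 3 gave 132 to 2524. On day 5 the sign of repeat 2 turned gave 2 calls, both unnamed probes.

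Below 0 on all arrays were 77 features, 39 after centring, 608 without the wide arrays (fewer arrays), 36 of the 3591 and 124 with the sign of repeat 3 turned; without 1 replicate there were 144 to 600. Above 0 on all arrays were 22 features, 749 without the wide arrays, 11 of the 3591, 430 and 9 with the sign of repeat 2 and of repeat 3 turned, and 72 to 626 without 1 replicate. CASP10 stood at 0.42 with the sign of repeat 2 turned and at -0.99 to -0.17 without 1 replicate.

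Single genes reversed as follows. Array weights without replicate 1 gave CHI3L2 0.066, NDRG1 0.021, PRKACG -0.064, PRPF38B -0.44 and ZNF776 -0.14, and without replicate 3 CCDC86 -0.028. All days averaged gave FAM83G -0.051. The sign of repeat 2 turned gave IL10 0.036, LCP2 0.085 and TGIF1 0.072, and that of repeat 3 turned gave TLL2 -0.53, TNXB -0.0073, ZEB2 -0.062 and ZNF37A -0.15. A turned sign changes a value by construction; for the others the cause was not tested.

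With the run as a replicate block the change with day kept 0 calls, and 0 with the labelled numbers as the block, with 715 and 201 at an unadjusted p under 0.05. The fits over features within 3 of 0, the counts with one sign under each setting, turned signs of means and slopes and the array weights without a replicate, on centred arrays or with a turned sign were chosen after seeing the data. With 3 repeats the exact test cannot reach 0.05, and spot intensities, which would show the signal over background, were not used here.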
